A study of Mus musculus with 12 samples.

Results

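The genes described here are 36 immediate early and stress-induced regulators: transcription factors of the FOS, JUN, ATF, EGR, NR4A, KLF and MAF families, MYC, SRF and PER1, the IER proteins, DUSP phosphatases and 6 other effectors of stress signalling. They were chosen by name, and each is represented by the brightest array row that carries its symbol alone. Of the 36, 35 had such a row, out of 22180 genes with one on the array, and all 35 exceeded the brightness limit used for testing on all 12 arrays. Fosl1 was measured only by rows with several symbols and is not reported. Jund and Dusp6 had 2 rows each.

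Immediate early genes are transcribed within minutes of a stimulus from factors already present in the cell, chiefly SRF with its ETS partners, CREB and NF-kB, without new protein synthesis. Their products, such as the AP-1 dimers of FOS and JUN proteins, the EGR zinc fingers and the NR4A nuclear receptors, then drive a later wave of genes, while DUSP phosphatases and the RNA-binding protein ZFP36 shut the signal off again. In blood stem cells, NR4A receptors, JUNB and EGR1 are known as brakes on proliferation, and MYC as a driver of growth and of exit from the niche.

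Affymetrix arrays measured expression in LSK cells, a lineage-negative, SCA1+, cKIT+ fraction of mouse bone marrow, from mice over 20 months of age on a C57BL/6 background. The 4 groups of 3 arrays were NIPA knockout (KO) cells irradiated with 4 Gy, untreated KO cells, wild type (WT) cells irradiated with 4 Gy and untreated WT cells, all harvested 3 h later. Cells of 3 mice were merged for each array, and all groups, the untreated ones included, had been put into medium with 30% fetal calf serum, IL-3 and IL-6 at 10 ng/ml each and SCF at 50 ng/ml for 30 min, so both arms carry the stimulus of serum and cytokines. No sample from before the culture was analysed here. Which part of Zc3hc1, the gene of NIPA, the knockout lacks is not stated by the labels. The labels do not say whether untreated and irradiated cells came from the same pools, so the p-values measure the spread between these arrays. NIPA is a substrate-binding part of an SCF ubiquitin ligase known for acting on cyclin B1, and the comparisons ask how early regulators respond to radiation and whether the response or the resting level differs without NIPA.

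Values are the deposited log2 expression values, and the number of arrays limits their precision. Array medians lay between 5.74 and 5.85. Zc3hc1 averaged 5.67 ± 0.07 in irradiated KO against 7.95 ± 0.27 in irradiated WT cells. Without irradiation it averaged 5.78 ± 0.04 in KO against 8.29 ± 0.26 in WT cells (mean ± SD, n = 3 each), so the arrays match their genotype labels. Cdkn1a, the p53-induced inhibitor of cyclin-dependent kinases, averaged 12.27 ± 0.26 in irradiated and 10.95 ± 0.17 in untreated KO cells, and 12.27 ± 0.40 in irradiated and 11.01 ± 0.41 in untreated WT cells. Kit, which defines the sort together with SCA1, was above the brightness limit on all 12 arrays, while Ly6a, the gene of SCA1, had no row of its own. Among the genes of the lineage gate, Cd8a and Ly6g were below that limit of 5.29 on all arrays, Cd4 exceeded it on 1 array and Cd3e on 2. Itgam, the gene of CD11b, was above it on all 12, between 7.39 and 8.66.

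Irradiation raised 16 of the 35 members and lowered 1, Myc, when the effects in KO and WT cells were averaged. The test was limma on all 15348 genes tested, with Benjamini-Hochberg adjusted p under 0.05. Over all these genes, 6.9% were called higher and 9.6% lower by the same rule. The risers were all 3 measured FOS genes, all 3 JUN genes, Atf3, Nr4a3, Klf6, Ier5, Dusp1, Dusp4, Zfp36, Gadd45b, Gadd45g and Sik1. None of the EGR genes passed. The median log2 change over the 35 was 0.34, with a range of -1.15 to 1.36, against a median of -0.00 over all genes tested. Less RNA per cell and fewer cells of a type cannot be told apart in such pooled samples.

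Within single genotypes fewer members passed. In KO cells 9 rose and 0 fell, where 2.74% of all genes tested rose and 3.2% fell (5.94% in all). In WT cells 5 rose and 0 fell, where 2.13% of all genes rose and 2.7% fell (4.83% in all). The 5 risers of WT cells, Atf3, Dusp1, Gadd45b, Ier5 and Nr4a3, were all among the 9 of KO cells. The 2 comparisons share no arrays. Irradiated arrays lay above untreated ones without overlap for 16 members in KO cells, where 10.2% of all genes did so, and for 13 in WT cells, where 11.4% did. Both held for the 5 above and for Fos, Fosb, Jun, Junb, Jund and Gadd45g. The share of all genes for which both held was not counted. Changes in KO and WT cells were both positive for 27 members, both negative for Myc and Per1 and of opposite sign for 6, none of them called. When each genotype was fitted without the arrays of the other, the KO calls of Dusp1, Fosb, Jun and Klf6 were lost (adjusted p = 0.076, 0.059, 0.074 and 0.068) and that of Dusp4 was gained (0.049). In WT cells the same setting added Fosb (0.023), Fosl2 (0.049), Jun (0.016) and Myc (0.0496), so the genotype in which Fosb and Jun passed depends on this choice.

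**Figure D1:**
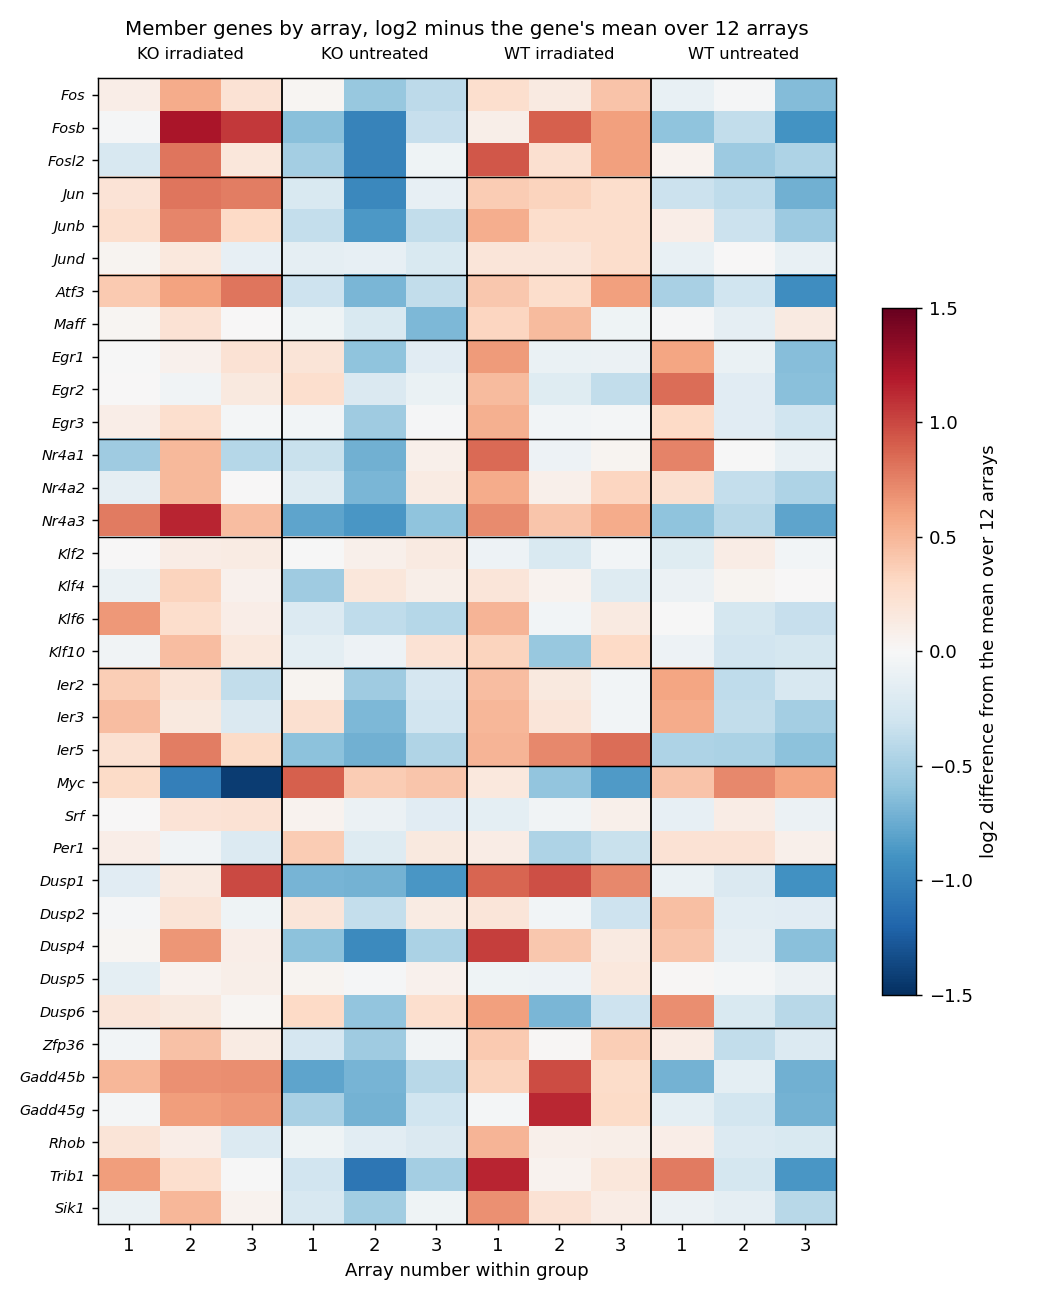
Log2 values of the 35 measured members on the 12 arrays, each minus the gene's mean over all 12, with the arrays of each group numbered 1 to 3 and horizontal lines between the roles. Nr4a3, Ier5, Atf3 and Gadd45b part irradiated from untreated arrays in both genotypes and Myc runs the other way, while the EGR genes, Nr4a1 and Dusp6 differ visibly between arrays of a group.

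The sequence upstream of the start site is shown for the 5 members that passed in both genotypes. Egr2 is added as a member without a called change. Such windows can hold binding sites through which genes are switched on. Each line gives 250 bases before a transcription start from RefSeq (GRCm38.p6), read 5′ to 3′ on the gene's strand. Capitals mark TGACG on either strand, the core of the cAMP response element that CREB and ATF proteins bind, and the CArG box, which SRF binds. The full palindrome TGACGTCA counts as 2 overlapping TGACG matches.
Nr4a3: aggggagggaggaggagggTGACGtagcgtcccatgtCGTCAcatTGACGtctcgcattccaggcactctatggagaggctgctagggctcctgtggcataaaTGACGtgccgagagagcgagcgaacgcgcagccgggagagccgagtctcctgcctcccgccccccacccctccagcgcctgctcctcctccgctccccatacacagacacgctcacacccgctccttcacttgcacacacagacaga
Dusp1: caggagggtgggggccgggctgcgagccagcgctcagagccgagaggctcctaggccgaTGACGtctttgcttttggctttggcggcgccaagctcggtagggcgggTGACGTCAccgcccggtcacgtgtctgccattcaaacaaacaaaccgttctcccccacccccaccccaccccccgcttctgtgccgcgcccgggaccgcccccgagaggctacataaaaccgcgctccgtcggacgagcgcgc
Gadd45b: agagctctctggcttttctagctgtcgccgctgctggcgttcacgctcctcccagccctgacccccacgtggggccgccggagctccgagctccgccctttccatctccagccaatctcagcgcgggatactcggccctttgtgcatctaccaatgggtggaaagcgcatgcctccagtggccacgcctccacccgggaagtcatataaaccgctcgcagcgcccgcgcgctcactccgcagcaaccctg
Ier5: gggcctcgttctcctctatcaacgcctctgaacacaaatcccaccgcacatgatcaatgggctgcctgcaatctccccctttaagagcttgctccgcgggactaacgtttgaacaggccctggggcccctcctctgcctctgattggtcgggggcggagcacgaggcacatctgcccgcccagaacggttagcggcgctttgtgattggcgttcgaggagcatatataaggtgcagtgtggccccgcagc
Atf3: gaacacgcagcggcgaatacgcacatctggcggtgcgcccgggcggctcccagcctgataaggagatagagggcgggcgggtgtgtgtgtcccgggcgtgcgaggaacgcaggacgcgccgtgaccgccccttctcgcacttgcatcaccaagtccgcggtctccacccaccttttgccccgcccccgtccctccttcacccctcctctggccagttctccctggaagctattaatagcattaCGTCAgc
Egr2: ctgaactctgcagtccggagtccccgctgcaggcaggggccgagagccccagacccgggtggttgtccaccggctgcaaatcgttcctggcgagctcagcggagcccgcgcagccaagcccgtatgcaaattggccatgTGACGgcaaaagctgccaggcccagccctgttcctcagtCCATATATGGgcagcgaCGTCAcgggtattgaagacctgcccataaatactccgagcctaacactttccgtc
Nr4a3 holds 4 TGACG matches at chr4:48045055-48045304, plus strand, and Dusp1 3 at chr17:26508473-26508722, minus strand, 2 of them in 1 palindrome. Atf3 has 1 at chr1:191183334-191183583, minus strand. The windows of Gadd45b at chr10:80929841-80930090, plus strand, and Ier5 at chr1:155099637-155099886, minus strand, hold neither motif. The Egr2 window, at chr10:67537619-67537868 on the plus strand, was picked from 5 starts listed for the gene because it holds both motifs. It has 2 TGACG matches and a CArG box, which allow no comparison with the other windows, since the choice fixed their presence. Egr2 had no called change. Such matches are letters in a window and not measured binding.

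Promoter windows were listed for 27 of the members and for 27025 genes in all, and a gene was counted if any of its starts held the motif on either strand. TGACG occurred in 15 of the 27 members (55.6%) and in 19.8% of all genes. A CArG box was found in 4 members, Egr2, Srf, Dusp5 and Zfp36 (14.8% against 1.62%). GCGNGGGCG, the site of EGR proteins, was in 11 (40.7% against 5.33%) and the E-box CACGTG in 9 (33.3% against 6.86%). A kB site was in 6, among them Fos, Fosb and Ier3 (22.2% against 8.23%). TGACGTCA was in 2, Dusp1 and Maff (7.41% against 1.77%), and a p53 half-site in 1, Ier5 (3.70% against 8.20%). No member window held the AP-1 site TGANTCA, which 7.82% of all genes had. By response, TGACG was in 6 of the 14 risers with a window and in 9 of the 13 members without a call, and a CArG box in 1 and 3. Base composition was not matched in these shares.

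The NR4A family split within itself. These orphan nuclear receptors bind DNA without a known hormone ligand, and NR4A1 and NR4A3 together are known to restrain blood stem cell growth in mice. Nr4a3 had log2 values of 7.69, 8.06 and 7.38 in irradiated KO cells, against 6.12, 6.04 and 6.31 in untreated KO cells. In WT cells Nr4a3 had 7.62, 7.33 and 7.47 after irradiation, against 6.31, 6.49 and 6.12 without it. All irradiated arrays lay above all untreated ones, and the average change was 1.36 (SE 0.12, limma adjusted p = 1.4e-05), the largest rise among the members. Nr4a3 rose by 1.55 (SE 0.17, adjusted p = 0.00024) in KO and by 1.17 (SE 0.17, adjusted p = 0.0017) in WT cells.

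Nr4a1 showed no such change. Its values were 9.24, 10.26 and 9.34 in irradiated KO cells, against 9.44, 9.06 and 9.85 in untreated KO cells. In WT cells Nr4a1 had 10.62, 9.70 and 9.82 after irradiation, against 10.52, 9.77 and 9.66 without it. Irradiated and untreated arrays overlapped in both genotypes, and the average change was 0.12 (SE 0.23, limma adjusted p = 0.79), with a 95% confidence interval of -0.39 to 0.63. Nr4a2 had an average change of 0.44 (SE 0.17, limma adjusted p = 0.10), and passed the test only when untreated WT array 1 was left out, among the arrays left out one at a time (0.55, adjusted p = 0.042).

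Among the FOS genes, whose products pair with JUN proteins to form AP-1, Fosb and Fosl2 moved most. Fosb had 7.64, 8.87 and 8.71 in irradiated KO cells, against 7.02, 6.64 and 7.31 in untreated KO cells. In WT cells Fosb had 7.73, 8.55 and 8.27 after irradiation, against 7.04, 7.28 and 6.75 without it. Every irradiated array exceeded every untreated one of its genotype, and Fosb rose by 1.29 (SE 0.22, limma adjusted p = 0.0017) on average and by 1.42 (SE 0.31, adjusted p = 0.018) in KO cells. In WT cells the difference was 1.16 (SE 0.31, adjusted p = 0.051), and a fit that blocks on the array number inside each genotype (the replicate block) gave adjusted p = 0.031. The WT difference also passed without irradiated KO array 1 (0.0098) or 2 (0.043) or irradiated WT array 1 (0.035). The KO call was lost when untreated KO array 1 (adjusted p = 0.057) or 2 (0.086), or irradiated KO array 2 (0.078) or 3 (0.072), was left out.

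Fos, the founding gene of the family, also rose. It had 6.76, 7.22 and 6.89 in irradiated KO cells, against 6.69, 6.10 and 6.28 in untreated KO cells. In WT cells Fos had 6.92, 6.80 and 7.10 after irradiation, against 6.55, 6.65 and 6.02 without it. The groups did not overlap in either genotype, by small margins, and Fos rose by 0.57 (SE 0.14, limma adjusted p = 0.015) on average. Fosl2, which encodes FRA2, had 9.08, 10.12 and 9.49 in irradiated KO cells, against 8.82, 8.33 and 9.26 in untreated KO cells. In WT cells Fosl2 had 10.25, 9.56 and 9.94 after irradiation, against 9.37, 8.78 and 8.86 without it. Irradiated and untreated KO arrays overlapped, WT arrays did not, and the average rise was 0.84 (SE 0.21, limma adjusted p = 0.015).

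Jun and Junb both rose. Jun, the main activating partner in AP-1, had 9.97, 10.56 and 10.54 in irradiated KO cells, against 9.53, 8.80 and 9.64 in untreated KO cells. In WT cells Jun had 10.14, 10.10 and 10.02 after irradiation, against 9.44, 9.38 and 9.05 without it. The groups were apart in both genotypes, with a rise of 0.91 (SE 0.15, limma adjusted p = 0.0018) on average, 1.03 (SE 0.22, adjusted p = 0.016) in KO cells and a difference of 0.80 (SE 0.22, adjusted p = 0.058) in WT cells. Junb, a JUN protein that holds back myeloid proliferation in mice, had 10.38, 10.86 and 10.43 in irradiated KO cells, against 9.77, 9.26 and 9.77 in untreated KO cells. In WT cells Junb had 10.67, 10.40 and 10.40 after irradiation, against 10.23, 9.80 and 9.59 without it. Its irradiated arrays also stood above the untreated ones throughout, and it rose by 0.79 (SE 0.14, limma adjusted p = 0.0022) on average and by 0.96 (SE 0.19, adjusted p = 0.014) in KO cells, with 0.62 (SE 0.19, adjusted p = 0.096) in WT cells.

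Single arrays decided some of these calls. The KO call of Jun was lost without untreated KO array 2 (adjusted p = 0.056) and without irradiated KO array 2 (0.071) or 3 (0.064), and that of Junb without untreated KO array 2 (0.066) or irradiated KO array 2 (0.061). In WT cells Jun passed without untreated KO array 2 (0.022) or irradiated KO array 1 (0.032), and Junb without untreated WT array 1 (0.041). Jund, the JUN protein of resting cells, had 6.67, 6.79 and 6.50 in irradiated KO cells, against 6.49, 6.50 and 6.39 in untreated KO cells. In WT cells Jund had 6.81, 6.80 and 6.89 after irradiation, against 6.51, 6.63 and 6.51 without it. Its average rise of 0.24 (SE 0.07, limma adjusted p = 0.042) was the smallest of the 16. The mean over the 2 rows of Jund gave 0.11 (adjusted p = 0.38). The call was also lost with array medians subtracted (0.077), with a trended and robust prior (0.0501) and when any 1 array was left out, irradiated KO array 3 excepted, at p values up to 0.10 after adjustment.

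Atf3 was among the steadiest risers. It encodes a stress-induced bZIP factor of the ATF/CREB family. Its values were 7.29, 7.50 and 7.69 in irradiated KO cells, against 6.58, 6.20 and 6.52 in untreated KO cells. In WT cells Atf3 had 7.29, 7.16 and 7.51 after irradiation, against 6.41, 6.59 and 5.96 without it. Within each genotype no arrays overlapped, and Atf3 rose by 1.03 (SE 0.12, limma adjusted p = 0.00017) on average, 1.06 (SE 0.18, adjusted p = 0.0040) in KO cells and 1.00 (SE 0.18, adjusted p = 0.0064) in WT cells. Maff, a small MAF protein that pairs with other bZIP factors, had an average change of 0.32 (SE 0.12, limma adjusted p = 0.093) and passed only without irradiated WT array 3 (0.40, adjusted p = 0.044).

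The EGR genes, zinc finger factors that SRF and ETS factors switch on after growth factor signals, did not pass. Egr1 had 7.50, 7.57 and 7.72 in irradiated KO cells, against 7.70, 6.91 and 7.34 in untreated KO cells. In WT cells Egr1 had 8.16, 7.42 and 7.43 after irradiation, against 8.10, 7.42 and 6.87 without it. The irradiated and untreated ranges overlapped in both genotypes, and arrays numbered 1 of WT cells were the highest with and without irradiation. Average changes were 0.24 for Egr1 (95% confidence interval -0.21 to 0.69), 0.01 for Egr2 (-0.47 to 0.49) and 0.26 for Egr3 (-0.06 to 0.57), with adjusted p of 0.48, 0.99 and 0.26. These intervals leave room for changes of up to 0.69 in Egr1, less than the rises of Nr4a3, Fosb or Dusp1.

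**Figure D2:**
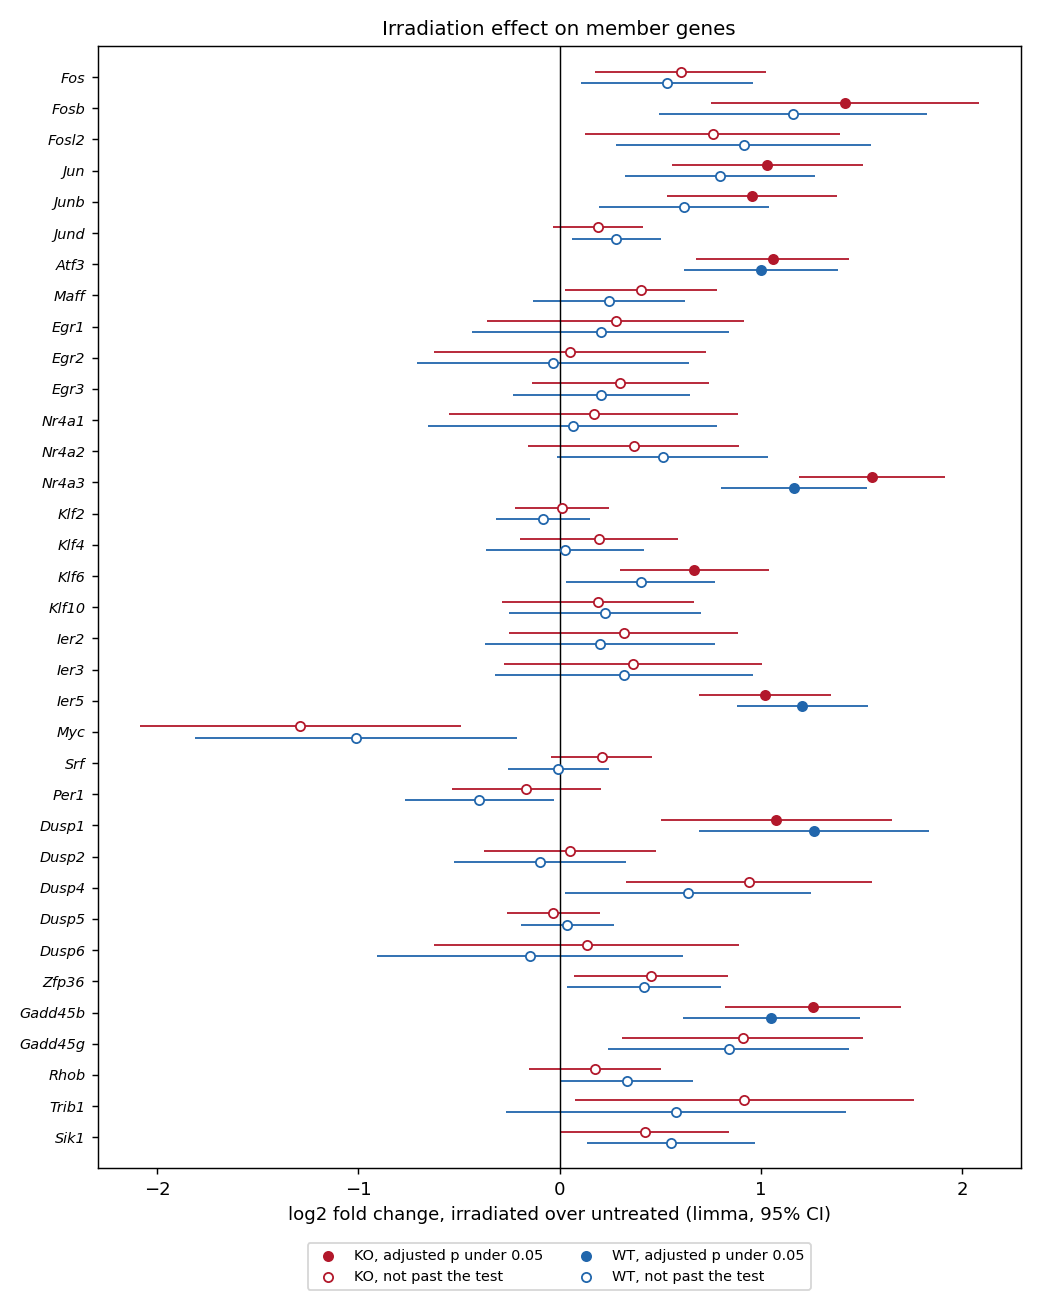
Log2 fold change of irradiated over untreated cells for each of the 35 members in KO and in WT cells, with 95% confidence intervals from limma and filled points for adjusted p under 0.05. In each genotype 5 members, Atf3, Nr4a3, Ier5, Dusp1 and Gadd45b, are filled, another 4 are filled for KO cells alone, and the points of Myc lie at -1.29 for KO and -1.01 for WT cells.

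Of the KLF zinc fingers only Klf6 passed. Klf6, which can induce Cdkn1a, had 10.37, 9.98 and 9.82 in irradiated KO cells, against 9.52, 9.35 and 9.30 in untreated KO cells. In WT cells Klf6 had 10.23, 9.69 and 9.85 after irradiation, against 9.72, 9.46 and 9.38 without it. KO arrays were apart and WT arrays overlapped, with a rise of 0.54 (SE 0.12, limma adjusted p = 0.0098) on average and 0.67 (SE 0.17, adjusted p = 0.038) in KO cells and a difference of 0.40 (SE 0.17, adjusted p = 0.21) in WT cells. The KO call of Klf6 was lost without untreated KO array 1 (adjusted p = 0.071), 2 (0.13) or 3 (0.11), irradiated KO array 1 (0.075) or 2 (0.085), or untreated WT array 2 (0.055) or 3 (0.0503), and with array medians subtracted (0.052). Klf2 and Klf4, known for quiescence in lymphocytes and for self-renewal in embryonic stem cells, had average changes of -0.04 and 0.11. Klf10, induced by TGF-beta, had 0.21 (adjusted p = 0.41), and passed only without irradiated WT array 2 (0.36, adjusted p = 0.048).

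Ier5 stood apart from the other IER genes. It encodes a nuclear protein that works with the heat shock factor HSF1 and is known to rise after radiation. Ier5 had 8.56, 9.11 and 8.62 in irradiated KO cells, against 7.72, 7.61 and 7.89 in untreated KO cells. In WT cells Ier5 had 8.84, 9.06 and 9.17 after irradiation, against 7.87, 7.86 and 7.73 without it. All irradiated arrays lay above all untreated ones of either genotype, and Ier5 rose by 1.11 (SE 0.11, limma adjusted p = 2.9e-05) on average, 1.02 (SE 0.15, adjusted p = 0.0020) in KO cells and 1.21 (SE 0.15, adjusted p = 0.00066) in WT cells. Ier2 and Ier3 had average changes of 0.26 and 0.34 (adjusted p = 0.39 and 0.30), with arrays that overlapped in both genotypes.

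Myc was the member that fell. It encodes the bHLH factor that drives ribosome production and cell growth. Its values were 10.75, 9.44 and 9.04 in irradiated KO cells, against 11.36, 10.85 and 10.89 in untreated KO cells. In WT cells Myc had 10.62, 9.87 and 9.62 after irradiation, against 10.90, 11.19 and 11.06 without it. Every irradiated array was below every untreated one of its genotype, but the irradiated array numbered 1 was the highest of its group in both. The average change was -1.15 (SE 0.26, limma adjusted p = 0.010), with differences of -1.29 (SE 0.37, adjusted p = 0.061) in KO cells and -1.01 (SE 0.37, adjusted p = 0.14) in WT cells that did not pass alone. Under the replicate block within genotype the fall had adjusted p = 0.018 in KO and 0.047 in WT cells. That block pairs KO arrays by number too, although KO numbers were not read as paired.

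The size of the fall depended on arrays numbered 1. Without both irradiated arrays numbered 1, an alternative added after the values were seen, Myc fell by 1.79 in KO (adjusted p = 0.00031) and by 1.30 in WT cells (0.0025). Without irradiated KO array 1 alone the KO fall passed (-1.79, adjusted p = 0.0023), as did the WT fall (0.026), and without irradiated WT array 1 alone the KO fall passed (0.047). Kit, the SCF receptor of the sort and not a member, was likewise highest on irradiated arrays numbered 1, with 11.10, 10.29 and 10.38 in irradiated KO cells, against 11.26, 10.71 and 11.10 in untreated KO cells. In WT cells Kit had 11.23, 10.18 and 9.97 after irradiation, against 11.32, 10.92 and 10.91 without it. Its part in the Myc result was not tested. Kit was chosen after its values were seen.

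Srf, the factor that switches on many immediate early genes, had an average change of 0.10 (95% confidence interval -0.07 to 0.28). Per1, a clock gene that also answers glucocorticoids and cAMP, had -0.28 (adjusted p = 0.14), and passed without irradiated WT array 1 (-0.37, adjusted p = 0.042) or without both irradiated arrays numbered 1 (-0.41, adjusted p = 0.025).

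**Figure D3:**
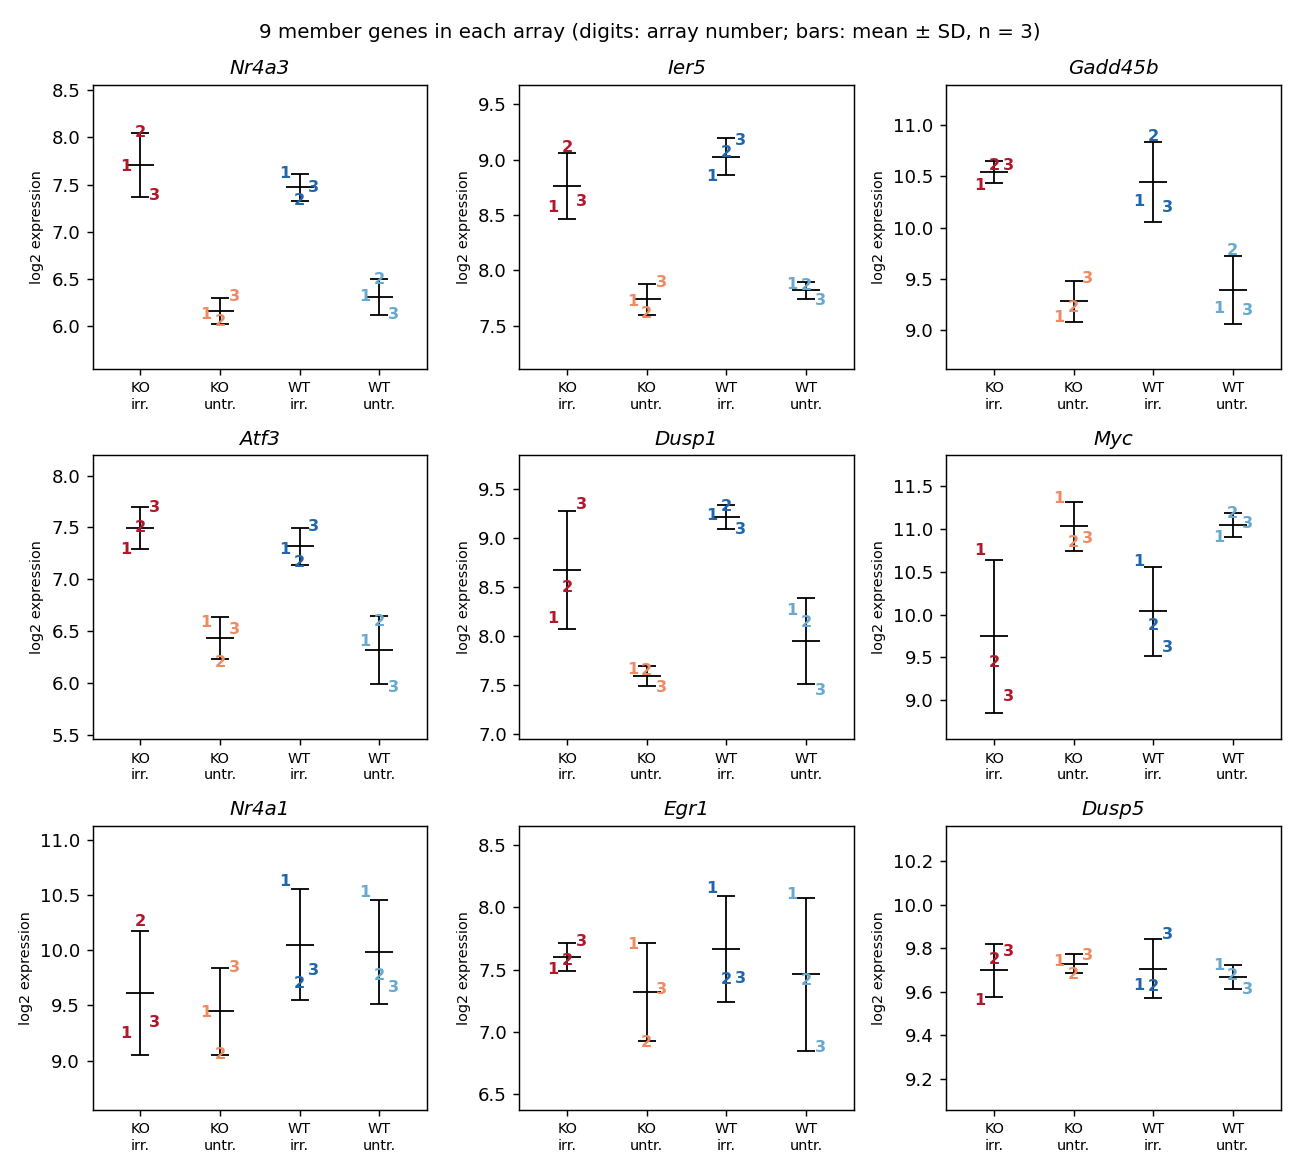
Log2 expression of 9 members on each array, by group, with the array number as the symbol and bars for the mean ± SD of 3 arrays (vertical scales differ between panels). Within each genotype Nr4a3, Ier5, Gadd45b, Atf3 and Dusp1 are higher on all irradiated arrays and Myc is lower, least so on arrays numbered 1, while Nr4a1, Egr1 and Dusp5 overlap.

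The DUSP phosphatases, which remove phosphate from MAP kinases, differed by member. Dusp1, the nuclear phosphatase of p38 and JNK that stress induces, had 8.19, 8.50 and 9.34 in irradiated KO cells, against 7.66, 7.65 and 7.48 in untreated KO cells. In WT cells Dusp1 had 9.24, 9.32 and 9.09 after irradiation, against 8.26, 8.14 and 7.45 without it. Irradiated arrays were all above the untreated ones of their genotype, with the widest spread in irradiated KO cells, and Dusp1 rose by 1.17 (SE 0.19, limma adjusted p = 0.0012) on average, 1.08 (SE 0.26, adjusted p = 0.032) in KO cells and 1.26 (SE 0.26, adjusted p = 0.017) in WT cells. The WT call was lost without untreated WT array 3 (adjusted p = 0.079) or irradiated WT array 2 (0.055). The KO call was lost without untreated KO array 1 (0.082), 2 (0.093) or 3 (0.095), and likewise with irradiated KO array 2 (0.065) or 3 (0.087) removed.

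Dusp4, another nuclear phosphatase, had 8.33, 8.96 and 8.40 in irradiated KO cells, against 7.69, 7.35 and 7.83 in untreated KO cells. In WT cells Dusp4 had 9.34, 8.71 and 8.44 after irradiation, against 8.72, 8.17 and 7.68 without it. KO arrays were apart and WT arrays overlapped, and the average rise was 0.79 (SE 0.20, limma adjusted p = 0.018). The KO difference of 0.94 (SE 0.28, adjusted p = 0.074) passed without untreated WT array 1 (adjusted p = 0.0497) or irradiated WT array 1 (0.049). Dusp2, Dusp5 and the cytoplasmic ERK phosphatase Dusp6 had average changes of -0.02, 0.00 and -0.01. The interval of Dusp5, -0.16 to 0.17, was among the narrowest, while that of Dusp6 ran -0.54 to 0.53.

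Gadd45b and Gadd45g, small proteins that bind the kinase MTK1 upstream of p38 and JNK, both rose. Gadd45b had 10.41, 10.60 and 10.61 in irradiated KO cells, against 9.13, 9.22 and 9.50 in untreated KO cells. In WT cells Gadd45b had 10.25, 10.89 and 10.19 after irradiation, against 9.21, 9.78 and 9.19 without it. Irradiated and untreated arrays were apart in both genotypes, and Gadd45b rose by 1.16 (SE 0.14, limma adjusted p = 0.00020) on average, 1.26 (SE 0.20, adjusted p = 0.0033) in KO cells and 1.05 (SE 0.20, adjusted p = 0.010) in WT cells. The WT call was lost without untreated WT array 3 (adjusted p = 0.059).

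Gadd45g had 7.93, 8.59 and 8.62 in irradiated KO cells, against 7.48, 7.26 and 7.67 in untreated KO cells. In WT cells Gadd45g had 7.94, 9.10 and 8.26 after irradiation, against 7.82, 7.69 and 7.26 without it. Arrays numbered 1 were the lowest of the irradiated ones in both genotypes, yet above all untreated arrays, and the average rise was 0.88 (SE 0.20, limma adjusted p = 0.0095). In KO cells the difference of 0.91 (SE 0.28, adjusted p = 0.077) passed without irradiated KO array 1 (adjusted p = 0.027) or irradiated WT array 2 (0.028).

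Zfp36, which encodes the RNA-binding protein TTP that destabilises cytokine and immediate early mRNAs after a stimulus, rose slightly. It had 10.44, 10.92 and 10.60 in irradiated KO cells, against 10.23, 9.95 and 10.43 in untreated KO cells. In WT cells Zfp36 had 10.88, 10.50 and 10.85 after irradiation, against 10.59, 10.11 and 10.27 without it. WT arrays overlapped and KO arrays nearly met, for an average rise of 0.44 (SE 0.12, limma adjusted p = 0.031). The call was lost without untreated KO array 1 (adjusted p = 0.057) or 2 (0.079), with irradiated KO array 2 (0.075) or 3 (0.051) removed, or without untreated WT array 2 (0.081) or 3 (0.069), or irradiated WT array 1 (0.063) or 3 (0.072).

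Sik1, a kinase that phosphorylates CREB coactivators, had 8.95, 9.55 and 9.10 in irradiated KO cells, against 8.80, 8.53 and 8.98 in untreated KO cells. In WT cells Sik1 had 9.74, 9.26 and 9.16 after irradiation, against 8.96, 8.91 and 8.63 without it. KO arrays overlapped at one value and WT arrays did not, and the average rise was 0.49 (SE 0.14, limma adjusted p = 0.027). It was lost without untreated KO array 1 (adjusted p = 0.051) or 2 (0.071), irradiated KO array 2 (0.063), untreated WT array 3 (0.072) or irradiated WT array 1 (0.055).

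Trib1, a pseudokinase that directs C/EBPα to degradation, had the widest spread of the members. Its average change was 0.75 (SE 0.27, limma adjusted p = 0.084), with adjusted p = 0.015 without untreated WT array 1, 0.0040 under the replicate block within genotype and 0.0086 under the block over all arrays. Rhob, a small GTPase known to be induced by DNA damage, had 0.26 (SE 0.11, limma adjusted p = 0.12), and adjusted p = 0.039 under the block within genotype. The blocks also pair KO arrays by number, a pairing that was not established.

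The members varied more within groups than most genes. Their median pooled SD within groups was 0.28, against 0.18 over all genes tested, and was highest for Trib1 (0.58), Myc (0.54), Dusp6 (0.51) and Nr4a1 (0.49). In WT cells array 1 was the highest of its group for 23 of the 35 members after irradiation and for 24 without it, where it was highest for 33.4% and 33.2% of all genes. Untreated WT array 3 was the lowest for 26 members (34.0% of all genes). Untreated KO array 2 was the lowest for 25 (30.4%). In irradiated KO cells array 2 was the highest for 18 (30.3% of all genes) and array 1 the lowest for 21 (32.8%). Irradiated KO array 1 was the highest for 8 members and for 41.5% of all genes.

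Untreated KO array 2 and irradiated KO array 3 also stood apart in B-lineage markers. Ebf1, a B-lineage transcription factor, was at 5.43, 5.95 and 9.62 in irradiated and 6.22, 9.51 and 6.58 in untreated KO cells. Igll1, a part of the pre-B cell receptor, was at 6.13, 6.64 and 9.96 in irradiated and 6.79, 9.56 and 6.32 in untreated KO cells. The mean over the 7 B cell markers with a row spanned 5.82 to 7.76 in irradiated and 6.13 to 7.57 in untreated KO cells, and 5.68 to 6.27 in irradiated and 5.78 to 6.72 in untreated WT cells, with Ms4a1 below the brightness limit throughout. These genes were singled out after their values were seen. Without untreated KO array 2, 4 members passed in KO cells and 14 in the average, where 392 and 1901 of all genes did. Without irradiated KO array 3, 6 and 16 members passed, and 533 and 2009 of all genes. With every array, 9 and 17 members passed, and 911 and 2532 of all genes. The part of B-lineage cells in these results was not tested. Hspa1a, a heat shock gene, was at 9.12, 10.50 and 9.90 in irradiated and 9.68, 7.71 and 9.60 in untreated KO cells, lowest on untreated KO array 2.

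The positions of arrays within their groups enter the spread against which irradiation was tested. Untreated WT array 1 lay a median 0.20 above the group mean over the 35 members, and untreated WT array 3 lay at -0.21 and untreated KO array 2 at -0.24. With untreated WT array 1 and untreated KO array 2 left out together, chosen after the values were seen, 16 members passed in the average effect, 5 in KO and 6 in WT cells, where 1764, 422 and 664 of all genes did. With both irradiated arrays numbered 1 left out, 17, 13 and 8 members passed, and 3359, 1702 and 1147 of all genes, against 2532, 911 and 742 with every array.

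**Figure D4:**
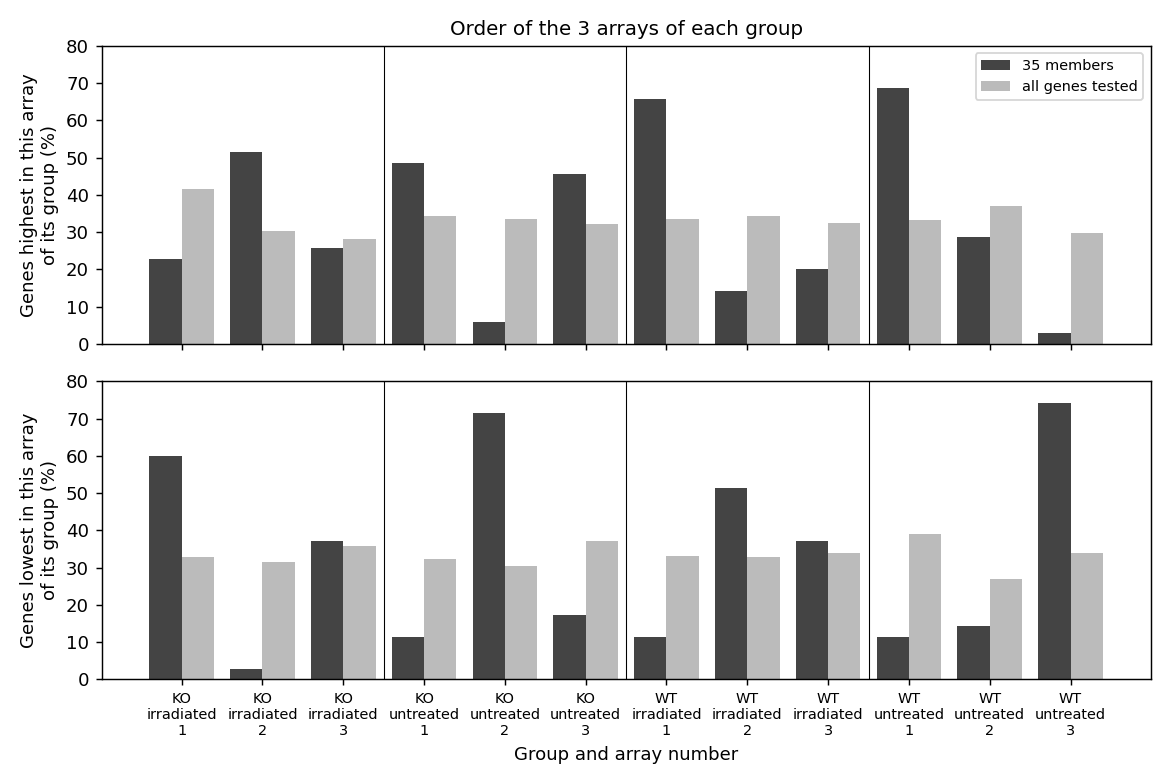
Percent of the 35 members (dark bars) and of all 15348 genes tested (light bars) for which an array was the highest (top) or the lowest (bottom) of the 3 arrays of its group. Untreated WT array 1 was highest for 24 of 35 members and untreated WT array 3 lowest for 26, while all genes lie near 33% on most arrays.

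Signalling genes around these regulators were counted in the same comparison, in which 16.5% of all genes passed. Of 15 tested MAP kinases and their upstream kinases, 1 rose and 1 fell on average (median 0.00): 0.41 for Map2k3, a kinase of p38, and -0.36 for Mapk8, which encodes JNK1. Of 13 coactivators and partners of SRF and CREB, Crem, a CREB relative, was the 1 that rose, by 0.53 (median over the list 0.08). Among 17 bZIP partners, Bach1 rose by 0.73 and Ddit3, which encodes CHOP, by 0.71 (median 0.09). Of 10 heat shock and dissociation genes, 1 rose, Dnajb4, by 0.60 (median over the list 0.25).

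Of 39 further primary response genes, 15 rose and 0 fell, with a median of 0.29. The risers with the smallest adjusted p were Plk2 (a rise of 2.41), Pmaip1 (1.71) and Sgk1 (1.13). Plk2 and Pmaip1 are among several primary response genes also on the list of p53 targets, of which all 14 tested genes rose (median 1.72). The primary response list also shares a gene with the NF-kB list, so the counts of these lists overlap. Of 13 genes of the NF-kB list, 11 rose and 0 fell (median 0.88), among them its own inhibitor Nfkbia (0.89). In the same comparison Flt3, the receptor of FLT3 ligand on multipotent progenitors, fell by 1.13 as the 1 of 6 tested LSK genes that passed. Among other cell types, 4 of 5 tested erythroid markers fell and 0 of 6 B cell, 5 T and NK cell, 10 granulocyte, 8 monocyte and macrophage, 5 megakaryocyte, 5 mast cell and 7 endothelial and stromal markers passed. Mean levels of the erythroid list spanned 5.56 to 6.10 in irradiated and 7.00 to 7.41 in untreated KO cells, and 5.66 to 5.89 in irradiated and 6.41 to 6.89 in untreated WT cells. The part of these cells in the members' changes was not tested.

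Loss of NIPA changed no member past the test. Called genes were 0 of 35 without irradiation, after it and in the average of both by limma, where 1 of 15348 genes, Zc3hc1 itself, was called (0.00652%). At an unadjusted p under 0.05, 0 members stood out in untreated cells, 0 in irradiated cells and 1 in the average, where 330, 471 and 635 of the 15348 genes did. The 1 member was Dusp1, with a KO minus WT difference of -0.45 (SE 0.19, adjusted p = 1.00). Its array values are given above, and irradiated KO arrays 1 and 2 lay below all irradiated WT arrays, while KO array 3 lay above them. The average difference ran from -0.48 (Nr4a1) to 0.19 (Klf10), with -0.41 for Dusp4 and -0.33 for Trib1.

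Untreated KO cells had lower means than untreated WT cells for 30 of the 35 members, with a median difference of -0.08. That direction rested on single arrays, since the median was 0.02 without untreated KO array 2, -0.005 without untreated WT array 1 and 0.12 without both. In irradiated cells 19 were lower and the median was -0.05, but 0.02 without irradiated KO array 1, 0.05 without irradiated KO array 3, 0.01 without irradiated WT array 1 and 0.11 without both arrays numbered 1. These counts share the same 6 arrays across members and carry no test. KO and WT arrays did not overlap for Jund, lower in KO cells in both treatments, where 3.55% and 3.83% of all genes were lower without overlap, and for Klf2, higher in irradiated KO cells (2.57% of all genes). The other, dimmer row of Jund overlapped between KO and WT in both treatments. In untreated cells 0 members were higher in KO without overlap, where 4.4% of all genes were. Half-widths of the 95% intervals for a genotype difference at 1 treatment ran from 0.22 (Jund) to 0.84 (Trib1), with a median of 0.44. These intervals are not adjusted for the number of genes tested. Differences smaller than these widths, and some larger ones, could therefore go uncalled with these arrays.

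The irradiation effect did not differ by genotype past the test for any member. The interaction, the effect in KO minus that in WT cells, called 0 of 35 members and 0 of all genes (0%) by limma, with 0 members and 235 of the 15348 genes at an unadjusted p under 0.05. Its largest value was that of Nr4a3 at 0.39 (95% confidence interval -0.13 to 0.90, adjusted p = 1.00), and the most negative that of Myc at -0.28 (-1.40 to 0.85). For Fosb, Jun, Junb and Klf6, which passed in KO and not in WT cells, the interaction was 0.26, 0.24, 0.34 and 0.27, with adjusted p = 1.00 each. The median half-width of these intervals was 0.62, so the 4 calls are not shown to differ between the genotypes.

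**Figure D5:**
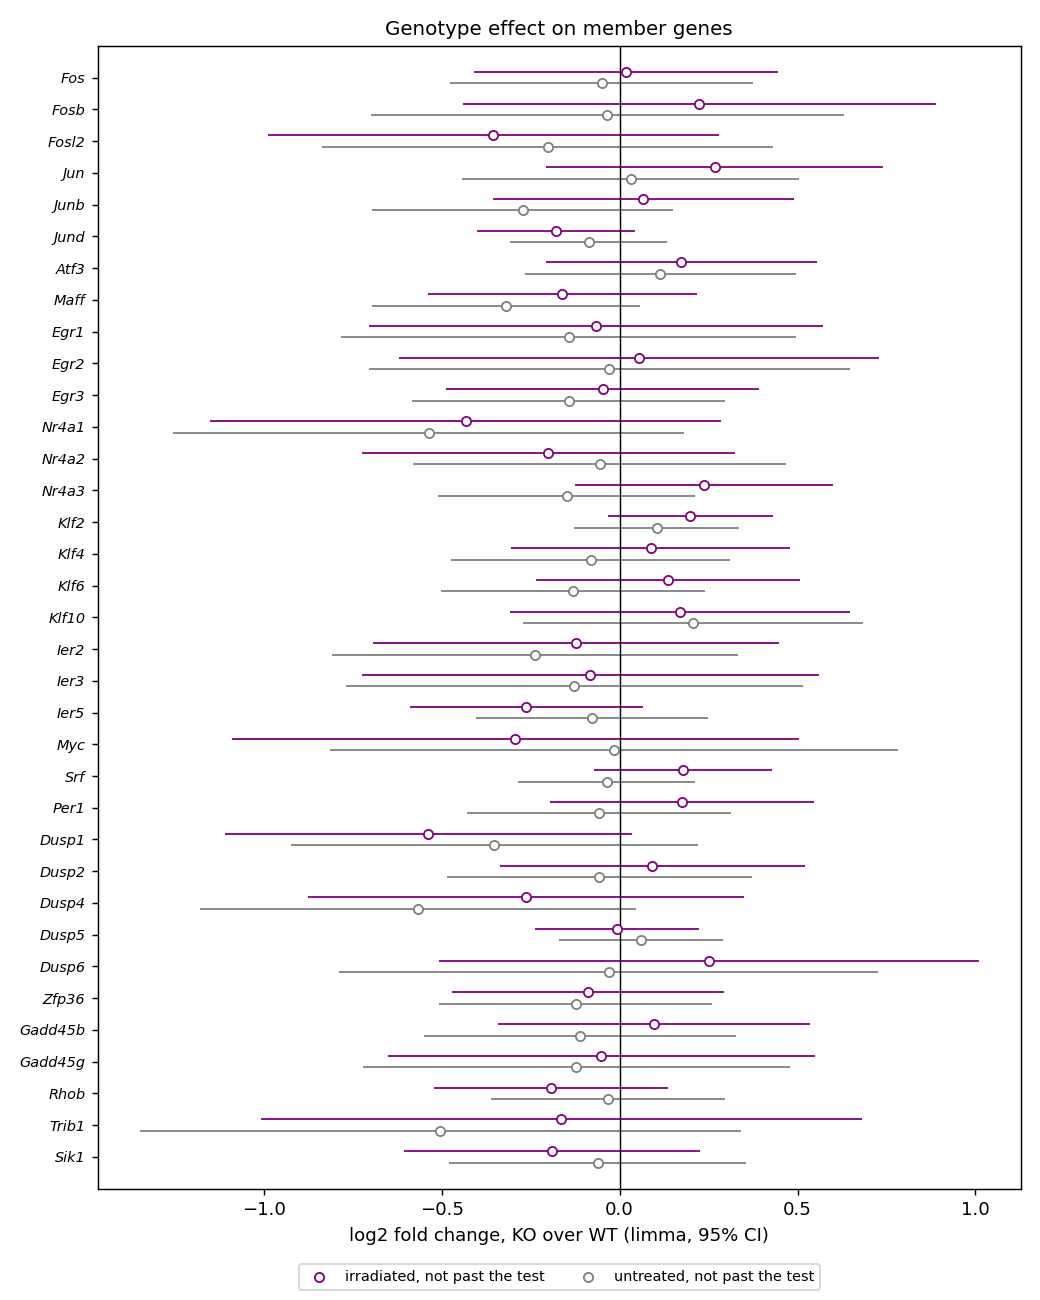
Log2 fold change of KO over WT cells for each of the 35 members, in irradiated and in untreated cells, with 95% confidence intervals from limma. No member passed the test in either treatment, and the intervals of all 35 include 0, with the widest for Trib1 and the narrowest for Jund.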

How the data were processed

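Expression was measured on 12 Affymetrix Whole Transcript Pico arrays. The deposited log2 values were made by the authors with oligo and RMA, per the submitters' processing notes; further normalization settings are not stated there. Of 41345 array rows, 23521 carried 1 gene symbol, 1814 several and 16010 none; only rows with 1 symbol were used. For the 1082 genes with more than 1 row the brightest was taken. Genes were tested where at least 3 arrays exceeded the 40th percentile of all values (5.29), which left 15348 and removed 6832.

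One limma model (version 3.58.1, R 4.3.3) with 4 group means gave each contrast, with Benjamini-Hochberg adjustment over all genes tested and a threshold of 0.05. It was tested on simulated data. The members, context lists and tests were chosen with earlier results of these data known. All members are accounted for. Array values are given for members past the test and for Fos, Jun, Egr1, Nr4a1 and Myc, and context lists name at most the 3 passing genes with the smallest adjusted p.

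The labels number the arrays 1 to 3 in each group and do not say what a number shares. Deviations of same-numbered arrays from their group means correlated at 0.42 to 0.49 between irradiated and untreated WT cells, over 0.1 for every pair. Same-numbered arrays also exceeded 0.1 throughout between untreated KO and irradiated WT cells (0.15 to 0.32). The same held between untreated KO and untreated WT cells (0.10 to 0.23), so passing 0.1 does not single out the WT pairs. WT numbers were read as paired from the WT correlations. The main model has no block, so its WT p-values ignore this pairing, and only the replicate blocks use array numbers. Between irradiated and untreated KO cells same-numbered arrays ran from -0.24 to 0.47, and KO numbers were not read as paired. Across numbers, untreated KO array 2 correlated with irradiated KO array 3 at 0.44, and untreated KO array 3 with irradiated KO array 2 at 0.52. The rest of the KO pairs of unlike number were negative. The values of 0.44 and 0.52, and 0.47 for the KO arrays numbered 1, were about as high as those of the WT pairs. Whether any of these arrays share pools was not tested. The replicate blocks pair KO arrays by number all the same. They thus match the KO arrays numbered 2, which correlated at -0.24, and those numbered 3, at -0.12. No block with the crossed KO numbers was run.

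Alternatives were other scalings (array medians subtracted, cyclic loess), brightness limits (none, 50th percentile), the mean over a gene's rows, fits on the arrays compared only, a trended and robust prior, replicate blocks and leaving out each array.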

Additional observations from a re-analysis of the deposited data

How the results depend on the processing

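No called value of a member changed sign in the alternatives run, but medians over the members for uncalled comparisons did. The median genotype difference of -0.08 in untreated cells was 0.12 without untreated WT array 1 and untreated KO array 2, that of -0.05 in irradiated cells was 0.11 without both irradiated arrays numbered 1, and that of -0.10 in the average was 0.05 without the first pair. The median interaction of 0.09 was -0.15 without the first pair, -0.03 without untreated KO array 2 and -0.07 without untreated WT array 1. In WT cells, where 5 members passed, 9 passed with only the arrays compared and 8 with both irradiated arrays numbered 1 left out. In KO cells, where 9 passed, 5 passed with untreated WT array 1 and untreated KO array 2 left out. Leaving out 1 array at a time gave 3 to 8 members in WT cells, 4 to 11 in KO cells and 14 to 18 in the average of both, where 17 passed. It gave 0 to 0 in the genotype comparisons and the interaction. With the replicate block inside each genotype, 7 members passed in WT cells, 13 in KO cells and 19 in the average, where Rhob (adjusted p = 0.039) and Trib1 (0.0040) were added; with the block over all arrays 6, 11 and 19 passed, and no genotype call of a member changed, while 4 genes in place of 1 passed in the average genotype difference. Both blocks match KO arrays by number, although KO numbers were not read as paired. Of 31 calls of a member in a comparison, 21 were kept under every alternative. Over all genes, 742 passed in WT cells, against 1228 with the block within genotype, 1147 without both irradiated arrays numbered 1 and 314 to 1040 with 1 array left out. In KO cells 911 passed, against 557 with only the arrays compared, 1390 with the block within genotype, 1702 without both irradiated arrays numbered 1, 422 without untreated WT array 1 and untreated KO array 2, and 392 to 1573 with 1 array left out. The cause of these shifts was not tested. All 35 members were above the brightness limit on every array, so the spread between 3 arrays a group limits these results.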
